A study of Homo sapiens with 16 samples.

Results

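ZBTB7A is a zinc-finger protein of the POK family that keeps fetal γ-globin (HBG1, HBG2) silent in adult erythroid cells. It binds many promoters and distal elements besides these genes, and acts in part through the NuRD corepressor complex. The regions described here were listed as bound by ZBTB7A in HUDEP-2 cells, an immortalised line of human erythroid progenitors. The γ-globin promoter of these cells carried the 195C>G substitution, and the list of the matching wild-type (WT) cells held no overlapping region. The regions were those of the 195C>G peak list that no region of the WT list overlapped by even 1 bp. Identical regions had been counted once and only standard chromosomes kept. The regions without WT overlap numbered 2008 of 18784, or 10.7% of the 195C>G list.

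ChIP-seq, the sequencing of DNA recovered with an antibody against a bound protein, gave these lists. The 195C>G list and the WT list (36435 regions) each came from 1 ChIP library and 1 control library of HUDEP-2 cells in which the Gγ-globin gene HBG2 is deleted (ΔGγ), so the cells of both lists lack HBG2 and differ, by their labels, in the promoter of the remaining γ-globin gene. Beside them stand ZBTB7A in K562 cells, an erythroleukaemia line (4 ChIP and 4 control libraries, 1 pooled list), and BCL11A, another γ-globin repressor, in HUDEP-2 cells with a V5-tagged BCL11A-ER protein induced for 24 h with 1e-07 M 4-hydroxytamoxifen (2 ChIP and 2 control libraries, 1 pooled list). The titles call the control libraries input, while their antibody label is IgG. The labels do not say whether each HUDEP-2 line is 1 clone. With 1 library a side no difference between the WT and 195C>G lists has a test, the read depth is unknown, and a region missing from the WT list is not shown to be unbound there. Intervals in the text are exact Clopper-Pearson 95% intervals and cover counting error only, since regions of 1 library are not replicates.

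Promoter sequence was at hand for 274 of the 349 genes with such a region at the promoter (RefSeq, GRCh38.p14, 1 promoter a gene, 250 bases before to 50 bases after the start). In 35 of them, with chromosomes 8 and 11 left out, the region's summit, its point of highest signal, lay inside those bases. In 19 of the 35 the summit also lay before any exon of the authors' annotation, whose starts differ from those of the sequence table at some genes, and 11 of the 19 were met by the K562 ZBTB7A or the BCL11A list described below. The 6 of these 11 with the highest signal are shown, with or without motif letters (a choice made after the values were seen), since they place the summit on a promoter that an independent list also holds. Each runs 5′ to 3′ along the gene from the first base of the table's window to the last base before an exon. Capitals mark the letters searched on both strands: GACCCC and GACCACC for ZBTB7A, TGACCA for BCL11A, AGATAA as well as TGATAA for GATA factors and TGANTCA for AP-1 and NFE2.
TMEM9 (chr1:201154556.0-201154724.0, strand -): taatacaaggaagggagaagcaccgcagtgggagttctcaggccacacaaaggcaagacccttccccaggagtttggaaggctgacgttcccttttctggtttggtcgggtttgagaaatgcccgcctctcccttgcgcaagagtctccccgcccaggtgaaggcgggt
TBC1D12 (chr10:94402291.0-94402428.0, strand +): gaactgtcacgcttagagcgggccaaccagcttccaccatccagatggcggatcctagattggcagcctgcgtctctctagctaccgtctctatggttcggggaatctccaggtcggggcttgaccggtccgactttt
STOML1 (chr15:73992349.0-73992545.0, strand -): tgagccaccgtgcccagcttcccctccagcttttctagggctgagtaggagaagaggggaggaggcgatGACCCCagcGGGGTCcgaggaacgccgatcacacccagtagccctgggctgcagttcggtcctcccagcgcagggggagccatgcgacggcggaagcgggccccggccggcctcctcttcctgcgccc
LGALS2 (chr22:37580088.0-37580337.0, strand -): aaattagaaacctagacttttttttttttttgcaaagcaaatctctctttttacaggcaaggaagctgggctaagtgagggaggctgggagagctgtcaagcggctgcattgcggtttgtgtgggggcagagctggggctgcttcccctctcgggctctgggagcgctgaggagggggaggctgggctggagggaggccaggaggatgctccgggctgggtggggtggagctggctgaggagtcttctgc
CENPE (chr4:103198410.0-103198593.0, strand -): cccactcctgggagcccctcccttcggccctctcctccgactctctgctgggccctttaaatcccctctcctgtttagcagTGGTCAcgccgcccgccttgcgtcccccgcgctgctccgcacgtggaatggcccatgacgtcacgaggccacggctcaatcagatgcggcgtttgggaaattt
SLC25A24 (chr1:108200359.0-108200593.0, strand -): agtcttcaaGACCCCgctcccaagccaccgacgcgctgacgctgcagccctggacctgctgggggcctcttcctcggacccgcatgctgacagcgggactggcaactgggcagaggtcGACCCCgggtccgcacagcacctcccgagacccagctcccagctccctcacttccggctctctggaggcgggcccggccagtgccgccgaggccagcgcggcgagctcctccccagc

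STOML1, which encodes a stomatin-like membrane protein, and SLC25A24, a mitochondrial ATP-Mg carrier gene, each held 2 matches of GACCCC in the bases shown. CENPE, a kinetochore motor gene, held 1 match of TGACCA and none of the ZBTB7A letters. TMEM9, TBC1D12 and the galectin gene LGALS2 held none of the letters marked, and 5 of the 11 promoters held none. The signals were 49.0 at TMEM9, 39.7 at TBC1D12, 38.5 at STOML1, 36.4 at LGALS2, 34.3 at CENPE and 33.3 at SLC25A24. Counted from the first base shown, the summits lay at base 36 in TMEM9, 93 in TBC1D12, 86 in STOML1, 179 in LGALS2, 103 in CENPE and 135 in SLC25A24. K562 met these regions except that of TBC1D12, and BCL11A met those of TBC1D12, STOML1 and CENPE. The nearest WT region was 320333 bp from that of SLC25A24 and 11 bp from that of TMEM9.

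Over the whole 300 bases, GACCCC was found in 24.5% of the 274 promoters, against 20.8% of all 14624 coding promoters in the table and 26.3% of the 4191 promoters whose 195C>G regions were all overlapped in WT. GACCACC was found in 2.92, 2.88 and 3.82% of these sets. The CACCC box of KLF factors was found in 65.0, 63.0 and 62.8%, the ETS motif CCGGAAG in 13.9, 14.4 and 20.5%, and CCAAT, the NFY motif, in 38.3, 36.3 and 34.0%. TGACCA was found in 7.30, 9.20 and 7.49%, AGATAA in 4.74, 7.56 and 4.82%, TGATAA in 4.74, 5.44 and 3.15% and TGANTCA in 5.47, 5.78 and 4.34%. The median GC content was 66.7% in the 274 promoters, 63.0% in all coding promoters and 66.3% in the WT-overlapped set. In the 35 promoters with the summit inside the window GACCCC was found in 25.7%, GACCACC in 2.86%, AGATAA in 11.4%, TGATAA in 8.57%, TGACCA in 8.57%, TGANTCA in 8.57%, CCGGAAG in 17.1% and CCAAT in 25.7%, with a median GC content of 59.7%. In the 108 promoters of genes without a WT promoter region the shares were 20.4% for GACCCC, 0 for GACCACC, 7.41% for AGATAA, 9.26% for TGATAA, 5.56% for TGACCA, 5.56% for TGANTCA, 9.26% for CCGGAAG and 35.2% for CCAAT, with a median GC content of 63.0%. These shares describe letters in a short window, and most of the 274 summits lay outside it. Those of the 35 promoters rest on few promoters each, and no interval was computed for them.

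The regions belonged mainly to the weaker end of the 195C>G list. The signal that the peak caller gave each region had a median of 30.8 (range 25.7 to 127) against 41.9 for the 16776 195C>G regions that WT overlapped, and the median rank by signal was 14424. In the strongest decile of the list 6 of 1878 regions (0.319%) had no WT overlap, in the fifth 135 (7.18%) and in the weakest 506 of 1879 (26.9%). The upper 5 deciles together held 310 of the 2008. These values come from the comparison that chose the regions and are given as a description. Most regions, 1910 of 2008 (95.1%), were 600 bp wide, the width of 83.2% of the whole list. Among the 26 regions of the 2 strongest deciles 23 were narrower than that (88.5%, 69.8 to 97.6%), as were 2236 of 3730 WT-overlapped regions of the same deciles (59.9%, 58.4 to 61.5%).

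**Figure D1:**
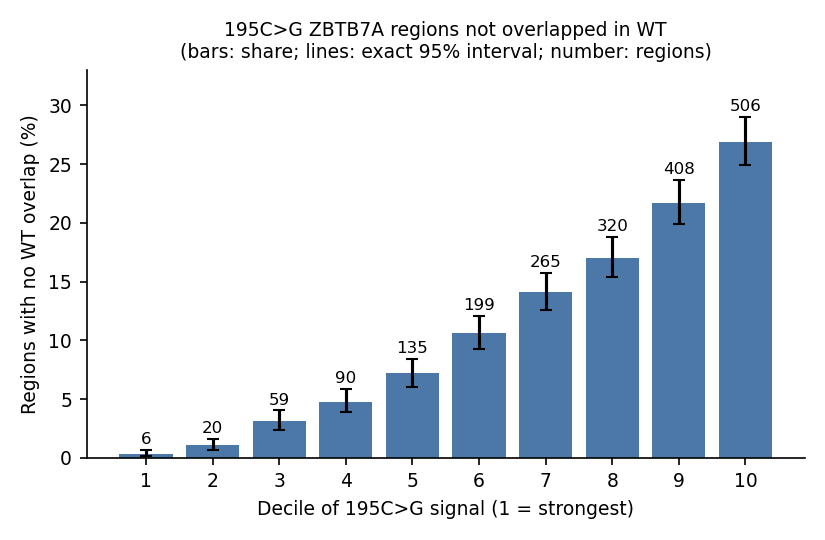
Share of 195C>G ZBTB7A regions with no WT overlap (y axis, %) in each decile of 195C>G signal (x axis, 1 is the strongest); lines are exact 95% intervals and the number above each bar counts the regions. The share rises in each successive decile, from 0.319% to 26.9%.

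Some regions lay close to the limit of the rule on either side. The closest region without WT overlap lay 1 bp from a WT region, near PGK2 on chromosome 6 (49782196 to 49782795, signal 55.9), and 57 regions lay within 100 bp. On the other side the smallest overlap was 3 bp, near SLC30A10 on chromosome 1 (219927890 to 219928489, signal 31.3). An overlap of 100 bp or less left 86 regions out of the 2008. The median gap to the nearest WT region was 6480 bp. Of the 2008 regions 463 (23.1%) lay within 1000 bp of a WT region and 153 lay more than 100000 bp away.

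Promoters, taken as a summit within 1 kb of the start of a protein-coding transcript, held 333 of the 2008 regions (16.6%, 15.0 to 18.3%), where 37.2% of all 195C>G regions and 39.7% (39.0 to 40.5%) of the WT-overlapped ones were promoter regions. Introns held 878 (43.7%, 41.5 to 45.9%) against 30.5% of the whole list, intergenic DNA 701 (34.9%, 32.8 to 37.0%) against 28.3%, and exons 96 (4.78%, 3.89 to 5.81%) against 4.01%. The median distance from the nearest coding start was 17063 bp, against 4175 bp for WT-overlapped regions. Within signal deciles the promoter share was the lower in 10 of 10 signal deciles, and the WT-overlapped share weighted to the same deciles was 38.9%. The WT regions that no 195C>G region overlapped, 16637 in all, were at promoters in 29.8% (29.1 to 30.5%).

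The promoter share differed with the distance of the nearest WT region. It was 61.4% of the 57 regions within 100 bp of a WT region, 49.2% of the 240 from 101 to 500 bp and 28.9% of the 166 from 501 to 1000 bp. From 1001 to 5000 bp it was 7.26% of 441 regions, and among the 153 beyond 100000 bp it was 8.50%, with 80 of them (52.3%, 44.1 to 60.4%) in intergenic DNA. Of the 333 promoter regions without WT overlap 201 had a WT region within 1000 bp.

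**Figure D2:**
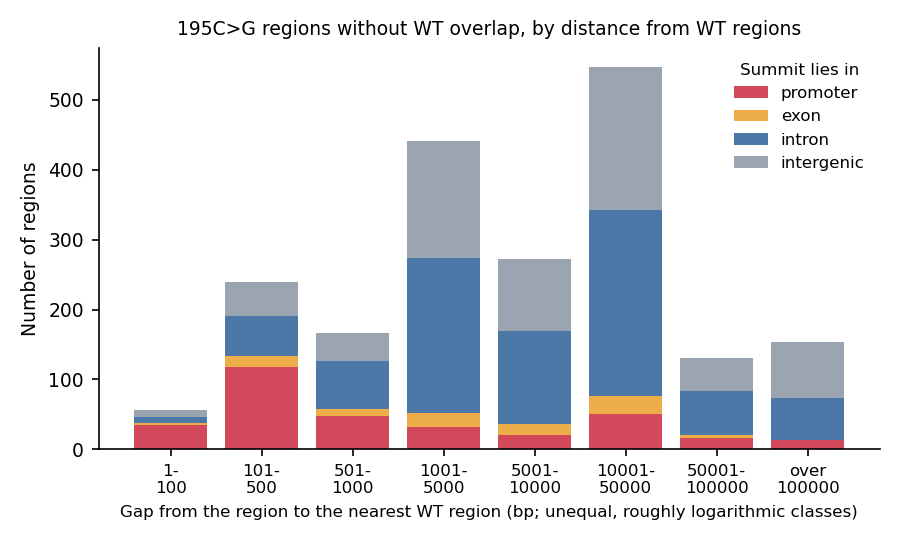
Number of 195C>G regions without WT overlap (y axis) by the gap to the nearest WT region (x axis, bp, in unequal classes), coloured by where the summit lies. Promoter regions make up 35 of 57 in the nearest class and 13 of 153 in the farthest.

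The lists that had no part in choosing the regions were K562 ZBTB7A and HUDEP-2 BCL11A, compared without chromosome 11, whose build differs. A K562 ZBTB7A region overlapped 279 of 1893 regions (14.7%, 13.2 to 16.4%), against 45.3% of the whole 195C>G list and 49.0% (48.2 to 49.7%) of WT-overlapped regions. BCL11A overlapped 207 (10.9%, 9.56 to 12.4%), against 29.3% of the list and 31.4% (30.7 to 32.2%) of WT-overlapped regions. Both lists met 48 of the regions (2.54%), and neither met 1455 (76.9%, 74.9 to 78.7%), where 37.3% (36.6 to 38.1%) of WT-overlapped regions met neither. Decile by decile, the K562 and the BCL11A share was each the lower in 10 of 10, although the 2 strongest deciles hold only 6 and 17 such regions off chromosome 11 and their intervals are wide. The WT-overlapped shares weighted to the deciles were 40.0% for K562 and 25.9% for BCL11A. WT regions without 195C>G overlap met K562 in 19.4% (18.7 to 20.0%) and BCL11A in 15.8% (15.2 to 16.4%).

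**Figure D3:**
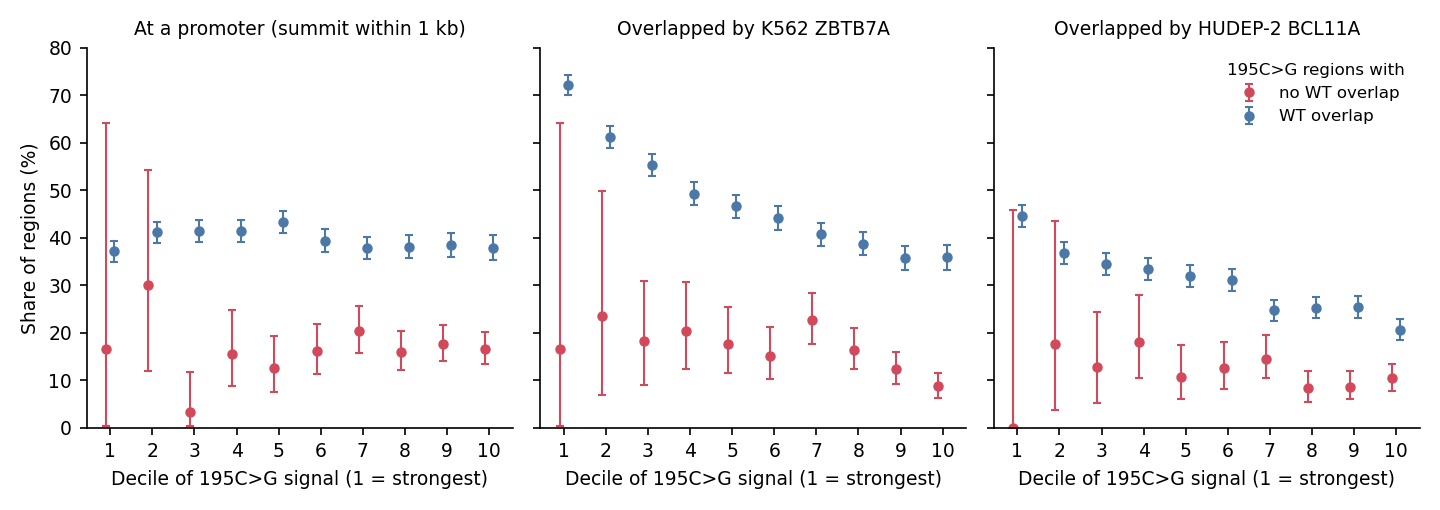
Share of 195C>G regions (y axis, %) at promoters, overlapped by K562 ZBTB7A and overlapped by BCL11A, in each decile of 195C>G signal (x axis, 1 is the strongest), for regions without (red) and with (blue) WT overlap; lines are exact 95% intervals. The red points lie below the blue ones in 10 of 10 deciles of each panel.

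The shares differed by position. Of the promoter regions without WT overlap 33.9% (28.6 to 39.4%) were overlapped by K562 ZBTB7A, and of those outside promoters 10.99% (9.49 to 12.6%); for WT-overlapped regions these shares were 64.5 and 38.7%. BCL11A overlapped 18.7% (14.5 to 23.5%) and 9.41% (8.02 to 10.96%), against 36.2 and 28.3%. The K562 share was 24.2% (20.2 to 28.5%) within 1000 bp of a WT region, 11.9% (10.3 to 13.7%) farther away and 8.11% (4.26 to 13.7%) beyond 100000 bp. Taking for each 195C>G region the K562 region with the largest overlap gave 273 different K562 regions. Their median place was 10350 in the listed order of 17331, against 5830 for the 6632 found in the same way under WT-overlapped regions. The meaning of that order is not stated, so a later place is not shown to be a weaker region. For BCL11A the median ranks of 12911 were 6663 (202 regions) and 5502 (4260 regions). Counting every overlap from the other side, 301 of 16332 K562 regions (1.84%) met a 195C>G region without WT overlap, where WT regions met 10211 (62.5%). Of the 301, 282 met no WT region, which the rule that chose the 195C>G regions largely fixes in advance.

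The strongest region at a promoter was that of REL, the gene of the NF-κB subunit c-Rel, on chromosome 2 from 60880734 to 60881135 (hg38), with a signal of 119 and rank 682. Its summit lay at -501 bp from the start (negative is upstream), a K562 region at place 464 overlapped it, and a WT region of rank 570 lay 54 bp away. MAT2A, the methionine adenosyltransferase gene, showed the same arrangement. Its region on chromosome 2 from 85538005 to 85538171 had a signal of 65.4 and rank 3512, met K562, and lay 39 bp from a WT region, while the best WT region at that promoter stood at rank 298. At TFR2, which encodes an iron-sensing transferrin receptor, the region (chromosome 7, 100640973 to 100641295, signal 52.4) lay 38 bp from the WT region of rank 103. The regions at EEF1A1, a translation elongation factor gene, and at ELOVL2, a fatty acid elongase gene, had signals of 65.7 and 56.0 and WT regions 533 and 256 bp away. At these 5 genes the promoter was in the WT list, and the 195C>G list held an additional region beside it.

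Other promoters among the strongest had no WT region with its summit within 1 kb of the start. MYRF, a transcription factor gene of myelinating cells, had a signal of 68.3 (rank 3181) on the modified chromosome 11 that the authors used, from 61749657 to 61749817, and the nearest WT region was 9667 bp away. SERPINF1, which encodes a secreted serpin, had a signal of 66.9 with its summit at -18 bp (chromosome 17, 1771353 to 1771952, hg38), 11724 bp from a WT region. MEN1, the menin gene, had a signal of 66.7 with its summit 8 bp into the gene (modified chromosome 11, 64805327 to 64805926). NDRG2, a gene of differentiation, followed at 52.1, and its region was also met in K562, at place 13986 of the order. ATM, the DNA damage kinase gene, had a signal of 47.4 and no WT region within 97912 bp. ITM2C had 46.0, ETV5, an ETS factor gene, 45.1 with the nearest WT region 100803 bp away, FABP7, a fatty acid binding protein gene, 45.1, SPEG 44.3 and ATP5S 42.4. A WT region lay 631 bp from that of FABP7 and 1060 bp from that of SPEG. Of SERPINF1, NDRG2, ITM2C, ETV5, FABP7, SPEG and ATP5S, which are not on chromosome 11, NDRG2 was met by K562 and ATP5S by BCL11A.

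The remaining genes among the 25 strongest promoters were CDC42BPG, NUDT18, HOMER1, TIGD3, CYHR1, SELPLG, ILKAP, TMEM9, DGAT1, STX3, VPS4B and BMT2, with signals from 67.0 (CDC42BPG) to 45.9 (BMT2). Each of these 12 had a WT promoter region. The nearest WT region, whether or not the best ranked at that promoter, lay from 11 bp (TMEM9) to 496 bp (CDC42BPG) away from the 195C>G region.

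In all 349 of 19343 coding genes (1.8%) had such a promoter region. A WT promoter region was also present at 209 of them (59.9%), and 142 had a further 195C>G promoter region that WT overlapped. The other 140 genes, 0.724% of coding genes, had no WT region with its summit within 1 kb of the start. A WT region could still lie close to the 195C>G region, as at FHOD1, 35 bp away. Off chromosome 11, 41 of 129 (31.8%) of the genes without a WT promoter region were met by K562, and 8 (6.20%) by K562 and BCL11A. Counted by region, K562 met 33.9% of promoter regions without WT overlap and 63.1% of all 195C>G promoter regions. For both lists together that share was not computed, so the 6.20% has no like share beside it. CENPJ, a centriole gene, was the strongest of the 8 by 195C>G signal and had a BCL11A score of 127 (rank 885) at its region on chromosome 13, from 24922916 to 24923515, with a 195C>G signal of 36.8 and the nearest WT region lay 90770 bp away. CENPE (chromosome 4, 103198191 to 103198790) had a signal of 34.3, a summit at -82 bp from the start, and the nearest WT region at 121746 bp. LDHD, a D-lactate dehydrogenase gene, had a BCL11A score of 128 (rank 870) and a WT region 185 bp from the 195C>G region, outside the promoter window. PPP3CB, a calcineurin gene, FBXO6, BOD1L1, GALM and HEPH, a gene of iron export, completed them, with 195C>G signals from 32.2 (FBXO6) to 26.5 (PPP3CB). The last 6 were named after their values were seen.

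Genes whose promoter region was met by K562 and BCL11A numbered 25, or 7.16% of the 349, which include genes of chromosome 11 that were not compared. The share of all 195C>G promoter regions met by both lists was not computed, so the 7.16% has no like share beside it. Counted by region off chromosome 11, at promoters or not, both lists met 2.54% of regions without WT overlap and 16.1% of all 195C>G regions. The 10 of highest 195C>G signal were led by CYHR1 (51.1), ITGB3 (39.4), IREB2 (39.2), KHDRBS1 (38.9), STOML1 (38.5) and CENPJ, followed by NAB2 (36.2), WARS and WDR25, which share a region (34.3), and CENPE. STOML1, whose promoter is printed above, had its summit at -112 bp from the start and a BCL11A score of 52.4. Except CENPJ and CENPE these genes also had a WT promoter region, with ranks from 4386 (NAB2) to 35285 (WARS and WDR25).

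Outside promoters lay the highest signal of all, 127 (rank 552), belonged to a region of 387 bp on chromosome 10 (109025131 to 109025517, hg38), 897931 bp from the nearest coding start, that of XPNPEP1, and 480741 bp from any WT region. In introns, those nearest to LMBRD2 (signal 112, chromosome 5, 36111241 to 36111654), DDX53 (105), NRXN3 (94.9), SLC24A3 (81.4), TRIB2 (76.6) and GALNT7 (74.2) followed, and in intergenic DNA those nearest to TULP4 (103), FOXK2 (84.2) and ZMAT4 (77.7). The 10 were between 195 and 414 bp wide. The regions near NRXN3, DDX53, SLC24A3 and ZMAT4 lay 1061567, 688097, 643978 and 274631 bp from a WT region. FOXK2, ZMAT4 and TRIB2 were met by K562, the last at place 523 of its order, and FOXK2 was also met by BCL11A. The FOXK2 region (chromosome 17, 82494399 to 82494593) lay 16 bp from a WT region.

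Regions also gathered in a few loci. They fell in 1060 of the 2193 bins of 1 Mb with a 195C>G region, and 573 of these bins held 1. The bin with most, on chromosome 8 from 124000001 to 125000000, held 11 of 38 regions. For MTSS1, a gene of the actin cytoskeleton, 10 of the 22 195C>G regions nearest to its start had no WT overlap, and 9 of the 10 lay in its introns, between 124638326 and 124712644. Their signals ran from 26.2 to 57.1 (median 32.0), against a median of 45.3 for the other 12. K562 met 1 of the 10 and 4 of the 12, and BCL11A 0 and 2. The nearest WT regions were 304 to 9083 bp away. Next by count was a gene on chromosome 17 whose symbol the annotation holds as a date, with 6 of 18 regions (signals 27.0 to 39.2). Among the other genes with 5 such regions the share was 5 of 10 at KCNQ1, a potassium channel gene, and 5 of 11 at BCAR1, an adhesion scaffold gene, but 5 of 35 at GSE1 and 5 of 34 at MYC, which are close to the 10.7% of the whole list. The 5 at MYC lay in introns of PVT1, the non-coding gene downstream. On chromosome 10, 7 of 12 regions between 132000001 and 133000000 had no WT overlap, near C10orf91, INPP5A and PWWP2B. Bins and genes were picked by their counts and support no test.

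On chromosome 19, which is rich in genes, 49 of 1319 195C>G regions (3.71%, 2.76 to 4.88%) had no WT overlap, where its regions' signal deciles predicted 123. The difference of -5.65 percentage points compares with -1.89 on chromosome 17 and 2.69 on chromosome 21, the extremes of the other autosomes. Outside promoters the share was 4.08% (2.80 to 5.71%) of 785 regions on chromosome 19 against 14.9% (14.3 to 15.6%) elsewhere. At promoters it was 3.18% (1.87 to 5.05%) of 534 against 4.89% (4.38 to 5.45%), and these intervals overlap. On the X chromosome 42 of 241 (17.4%, 12.9 to 22.8%) had none, against 12.8% predicted.

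**Figure D4:**
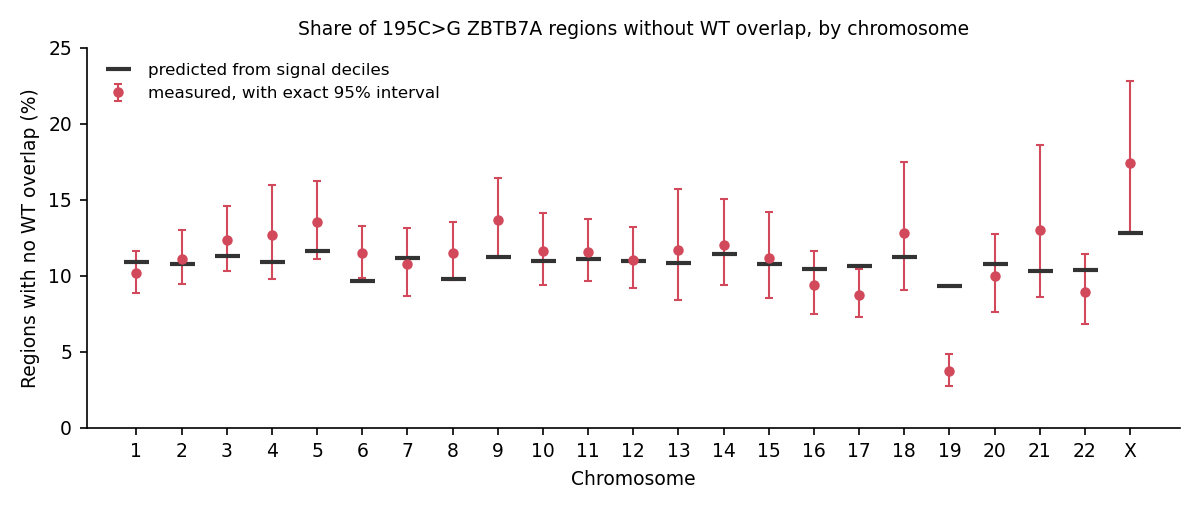
Share of 195C>G ZBTB7A regions without WT overlap (y axis, %) on each chromosome (x axis). Red points are the measured share with exact 95% intervals, black dashes the share predicted from the signal deciles of the chromosome's regions; chromosome 19 lies at 3.71% against 9.36% predicted.

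Genes of erythroid and other cells were then read from 12 lists, of whose 272 genes 271 matched the annotation. HBG2 is not in the annotation of these cells. None of the 9 globin genes matched had such a region at its promoter. With 50 kb on each side there was none among 3 195C>G regions of the β-globin locus and none among 14 of the α-globin locus. The WT list held 11 and 22 regions there. With 10.7% of the whole 195C>G list lacking WT overlap, so few regions can easily hold none, and these counts are not a result about the loci. Promoter regions without WT overlap were found at 12 of the 271 genes (4.43%, against 1.8% of all coding genes), and 9 of these 12 had a WT promoter region as well. The listed genes were also often bound in WT: 57.6% of the 271 had a WT promoter region, against 44.9% of coding genes. At 1.8%, a list of 16 to 34 genes is likely to hold few or none. A count of 0 or 1 in the lists below is therefore near that share and is not a result about the list.

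KLF1, the erythroid activator that drives BCL11A and ZBTB7A expression, was the 1 gene of 32 erythroid transcription factors. Its region (chromosome 19, 12886366 to 12886565, signal 35.8) lay 793 bp into the gene and was met by K562 at place 1146, while the best WT region of the promoter stood at rank 153. None of 24 fetal globin regulators had one, where 1.8% of all coding genes did. Of 27 genes of NuRD and other corepressors 4 had one (14.8%), and 17 of the 27 had any 195C>G promoter region. The 4 were TBL1X (signal 38.6), RBBP7 (30.2) and the deacetylase gene HDAC2 (27.3) beside WT promoter regions, and MTA3, a NuRD subunit gene, with 29.2 and no WT region within 103721 bp.

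Of 30 genes of heme synthesis and iron TFR2 and IREB2, the iron regulatory protein gene, had one. Among 33 membrane and surface genes of red cells DMTN, which encodes dematin (signal 36.6), and RHAG, the Rh-associated glycoprotein gene (33.7), had one, 144 and 64 bp from WT regions. Of 22 glycolysis genes ENO2 had one (32.6), with no WT region within 8383 bp. Of 34 genes of the cell cycle and apoptosis none had one, where 1.8% of all coding genes did.

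Among markers of other lineages, 2 of 16 megakaryocyte and platelet genes had one, and 3 of the 16 had any 195C>G promoter region. ITGB3, the integrin β3 gene, had a signal of 39.4, 78 bp from a WT region of rank 34162. TUBB1 had a signal of 35.2 with its summit 166 bp into the gene (chromosome 20, 59019120 to 59019719). TUBB1 had no WT promoter region, but a WT region of rank 9409 lay 1177 bp from its 195C>G region. BCL11A overlapped that 195C>G region with a score of 217 and rank 382. Of 16 myeloid, 16 lymphoid, and 16 hepatocyte and neuron markers none had one, where 1.8% of all coding genes did.

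By the nearest coding start, promoters or not, 46 of the 271 listed genes (17.0%) had at least 1 region without WT overlap, against 8.39% of all coding genes. The same genes were more often nearest to any 195C>G region, at 66.8% against 43.1%. Most of these regions lay in introns or between genes and were weak. BCL11A had one in its intron, 1873 bp past the start (chromosome 2, 60551325 to 60551924, signal 38.5), 532 bp from a WT region. MYB, a progenitor transcription factor gene, had one 2724 bp past the start (signal 31.6), 310 bp from a WT region. GFI1B, a repressor gene of erythroid and platelet cells, had 2 (38.4 and 31.1), and FOXO3, a transcription factor of red cell maturation, had 3, of which the strongest, at 45.5, lay 38545 bp from a WT region. TCF3, the gene of the E2A proteins, had one at -3218 bp (signal 47.2), 208 bp from a WT region of rank 1412. BCL11A also overlapped this 195C>G region, at rank 691. CSF3R, the receptor gene for a granulocyte growth factor, had one at -9443 bp (signal 41.3), which K562 met at place 129 of its order. These genes were named after their values were seen.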

How the data were processed

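ZBTB7A and BCL11A were measured by ChIP-seq in 16 libraries. The submitters' processing notes name Trimmomatic 0.3.2, Bowtie2 2.2.9, Bowtie, Picard and bedtools and the build hg38, with no roles. Per the labels, a genome and annotation with an altered chromosome 11 served for both HUDEP-2 ZBTB7A lists. In these deposited lists each region has the signal of the peak caller SPP (named in the file titles), a −log10 false discovery rate, and a summit offset. The signal is the authors' own, and was used only to rank regions within a list. BCL11A regions carry a deposited score whose scale is not stated. K562 regions carry no value, so their place is the order in the file, whose meaning is not stated either. The pooled lists were filtered by IDR, a measure of agreement between replicates, per their file names. The depth of the libraries is unknown.

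Regions on standard chromosomes were counted once when identical, from 18978 rows of the 195C>G file, and overlaps needed 1 bp. Merging the overlapping ones among the 2008 left 1962 sites. A gene's promoter region had its summit within 1 kb of the start of an NM transcript. Signal deciles were those of the 195C>G list. Chromosome 11 was left out against the lists of the other build. Coordinates are 1-based. Overlap functions were tested on simulated regions (Python 3.11.15, pandas 2.3.3, scipy 1.17.1).

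The regions, gene lists and rules were chosen with earlier results of these data known. Named genes were the 25 strongest promoters, the 10 strongest regions outside promoters, the 10 strongest promoters met by K562 and BCL11A, the 10 strongest without a WT promoter region, every listed gene with such a promoter region and the globin genes. Alternatives changed the overlap rule, promoter window and list thresholds. No test across replicates was possible with 1 library a side.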

Additional observations from a re-analysis of the deposited data

How the results depend on the processing

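Over the 21 alternatives run for the 3 shares (promoter, K562, BCL11A), the share was below that of the WT-overlapped regions in 21. The count of 2008 regions became 4188 when only an overlap of 50% of both regions removed a region, 310 in the stronger 50% of the 195C>G list and 5272 against the stronger 50% of the WT list. With WT regions extended by 500 and 1000 bp it was 1711 and 1545, and of the 74 named regions 45 and 41 remained. The promoter share of 16.6% became 12.9% in the stronger 50% of the 195C>G list, 8.54% with WT regions extended by 1000 bp, 9.56% with a 500 bp window and 30.1% with a 5 kb window. The K562 share of 14.7% became 18.9% in the stronger 50% of the 195C>G list, 11.9% with WT regions extended by 1000 bp, 6.71% with an overlap of 50% of both regions, 19.2% with K562 regions extended by 500 bp and 6.08% with the first 50% of the K562 order. The BCL11A share of 10.9% became 13.4, 8.84, 6.39, 14.8 and 5.34% under the same 5 changes. The 140 genes without a WT promoter region became 12 in the stronger 50% of the 195C>G list and 154 with a 5 kb window. With WT regions extended by 1000 bp, an alternative added after seeing the data, they became 124. The cause of these moves was not tested. Leaving out chromosome 19, an alternative chosen after seeing the data, gave shares of 16.1, 14.5 and 10.6%. No paired analysis was possible because each HUDEP-2 ZBTB7A list comes from 1 library and the other lists pool their replicates. The read depth behind all of these counts is unknown, and its effect was not tested.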
